A study of Mus musculus with 8 samples.

Results

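Splicing removes introns from nascent transcripts and is carried out by the spliceosome, whose U snRNPs are small nuclear RNAs wrapped in proteins. The Sm proteins (genes Snrpb, Snrpd1, Snrpd2, Snrpd3, Snrpe, Snrpf and Snrpg) form the ring at the core of most of these particles. U2AF and the SF3a and SF3b complexes help to recognise the end of the intron and its branch point, and PRPF8 and its partners lie close to the catalytic centre. SR proteins usually favour the inclusion of the exons they bind, whereas hnRNPs coat nascent RNA and often favour exon skipping. Most of these genes are expressed in every cell, and regulated splicing is one way in which epithelial and mesenchymal cells differ.

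The members described here are the genes named as SR proteins (Srsf with a number), hnRNPs (Hnrnp), SF3a and SF3b subunits, snRNP proteins (Snrp), U2AF subunits, PRPF factors with a number, LUC7-like proteins, RBM proteins with a number, and the DEAD-box helicases Ddx5 and Ddx17. They were found by their symbol in 4 deposited tables, which held 83 of them among 5828 genes. GENCODE release M21 names 112 protein-coding genes that fit the same pattern. The members fell into 20 hnRNPs, 16 RBM proteins, 11 snRNP proteins, 10 SR proteins, 10 PRPF factors, 9 SF3 subunits, 3 LUC7-like proteins, 2 U2AF subunits and 2 helicases.

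The data are Visium libraries, a method that reads messenger RNA in place, at a grid of barcoded spots on which the section lies; a spot can cover several cells of different types. They came from uteri of 8 female mice of a mixed C57BL/6 and 129SvEv strain, all ovariectomized at postnatal day 71 ± 4 and sampled at day 112 ± 11, with 1 female of each genotype drawn from each of 4 litters. The 4 knockout uteri (EZ fl/fl; Prcre/+, the Ezh2cKO, called KO below) and the 4 controls (EZ fl/fl, labelled WT) all carried floxed alleles of Ezh2, the methyltransferase that places the repressive mark H3K27me3. They differed in a Cre driven by the progesterone receptor promoter, which acts only in cells that express or have expressed that receptor. Transcripts of Ezh2 were not analysed here, so the loss of the gene was not checked.

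Each table compares 2 of 4 pools, namely KO epithelium, WT epithelium, KO stroma and WT stroma, as the authors named the spots. The tables give 1 value per pool and none per animal, so no value below has a replicate. Of the members, 40 were in all tables and 18 in the comparison of KO with WT epithelium alone. Recovered totals of UMIs (unique molecular identifiers, each standing for 1 captured molecule) over the listed genes ran from 416747 in WT stroma to 1552958 in KO epithelium, with 2.01 times the depth in KO stroma that WT stroma had. Among 20 markers of simple uterine epithelium, 12 had a value in all pools, and their summed scaled average was 62.9 in WT epithelium, 54.3 in KO epithelium, 7.84 in WT stroma and 17.2 in KO stroma. For 16 of 18 endometrial stroma markers it was 44.1, 60.5, 139 and 122 in the same order. The stroma spots thus also held epithelial transcripts, more of them in KO. The epithelium spots likewise held transcripts of stroma markers, again more of them in KO. Stroma pools also held more smooth muscle RNA (8 of 12 markers, 24.7 in WT and 12.0 in KO, against 8.79 and 5.70 in epithelium), and more RNA of blood vessels (3 of 12 markers, 5.11 and 3.99 against 1.64 and 1.93) and immune cells (2 of 13 markers, 16.8 and 9.45 against 3.63 and 5.00). None of these summed markers was at 0 in any pool. In pools of spots, fewer cells of a type and less RNA per cell cannot be told apart.

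Levels are given as scaled averages, that is, UMIs per unit of size factor, set on 1 scale for all pools. UMI numbers are not divided by gene length, so levels are compared between pools for a gene and not between genes. A gene counts as called if its adjusted p-value (FDR) in the authors' deposited table was under 0.05. Intervals in parentheses are 95% exact Clopper-Pearson intervals of the ratio of pooled UMIs, and cover counting error only.

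The compartments of the WT uterus gave the clearest differences. Of 50 members listed, 6 were called, 3 on the epithelium side and 3 on the stroma side. That is 12% of the members, while 28.8% of all 1769 listed genes were called (13.1% on the epithelium side, 15.7% on the stroma side). Past 1.5-fold in either direction lay 7 members higher in epithelium (19.5% of all genes) and 8 higher in stroma (21.7% of all genes). The median log2 ratio of epithelium over stroma was -0.05 for the members and 0.02 for all genes, and the summed level of the members was 0.943 times that in stroma (0.919 to 0.967).

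The members called higher in WT epithelium were 2 Sm proteins and 1 hnRNP. Snrpd1, which encodes the Sm protein D1 (chromosome 18, 10617775 to 10642079, plus strand, GRCm38), had a scaled average of 1.47 in WT epithelium, 0.703 in WT stroma, 1.22 in KO epithelium and 1.02 in KO stroma. WT stroma was the lowest pool, and WT epithelium was 2.09-fold higher (1.53 to 2.89; 260 against 49 UMIs), at an FDR of 0.00905 in the authors' deposited table. Snrpd3, which encodes D3 (chromosome 10, 75517551 to 75537381, plus strand), had 1.59 in WT epithelium, 0.875 in WT stroma, 1.505 in KO epithelium and 1.25 in KO stroma. WT epithelium was 1.82-fold above WT stroma (1.38 to 2.44), at an FDR of 0.0391 in the authors' deposited table.

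Hnrnpab encodes an hnRNP of the A/B type (chromosome 11, 51600100 to 51606847, minus strand). Its scaled average was 3.33 in WT epithelium, 1.99 in WT stroma, 3.23 in KO epithelium and 2.65 in KO stroma. Both epithelium pools stood above both stroma pools, and in WT the ratio was 1.67 (1.39 to 2.03; FDR 0.0364 in the authors' deposited table).

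The members called higher in WT stroma were a U1-associated factor and 2 RBM proteins. Luc7l2 encodes a protein of U1 snRNP that acts in the choice of 5′ splice sites (chromosome 6, 38551334 to 38609470, plus strand). It had a scaled average of 0.790 in WT epithelium, 1.81 in WT stroma, 0.682 in KO epithelium and 1.21 in KO stroma, so that both stroma pools exceeded both epithelium pools. The WT ratio was 2.29-fold in favour of stroma (1.78 to 2.93), the most extreme fold among the 50 members, with 140 UMIs in epithelium and 126 in the shallower stroma pool and an FDR of 0.000502 in the authors' deposited table. Rbm39, a U2AF-related splicing factor and transcriptional coactivator (chromosome 2, 156147239 to 156180238, minus strand), had 3.36 in WT epithelium, 5.28 in WT stroma, 2.77 in KO epithelium and 3.99 in KO stroma. Stroma was again the higher compartment in both genotypes, by 1.57-fold in WT (1.38 to 1.79; FDR 0.0404 in the authors' deposited table). Rbm3, which encodes a cold-inducible RNA-binding protein (X chromosome, 8138975 to 8145880, minus strand), had 2.47 in WT epithelium, 3.93 in WT stroma, 2.44 in KO epithelium and 2.45 in KO stroma. Only the WT stroma pool stood apart for Rbm3, 1.59-fold above WT epithelium (1.37 to 1.86; FDR 0.0423 in the authors' deposited table). An antisense gene, Rbm3os, overlaps Rbm3, and whether counting used strand is not given in the sources used here. Of the other called members, Hnrnpab, Snrpd3 and Luc7l2 also overlap a gene on the opposite strand.

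**Figure D1:**
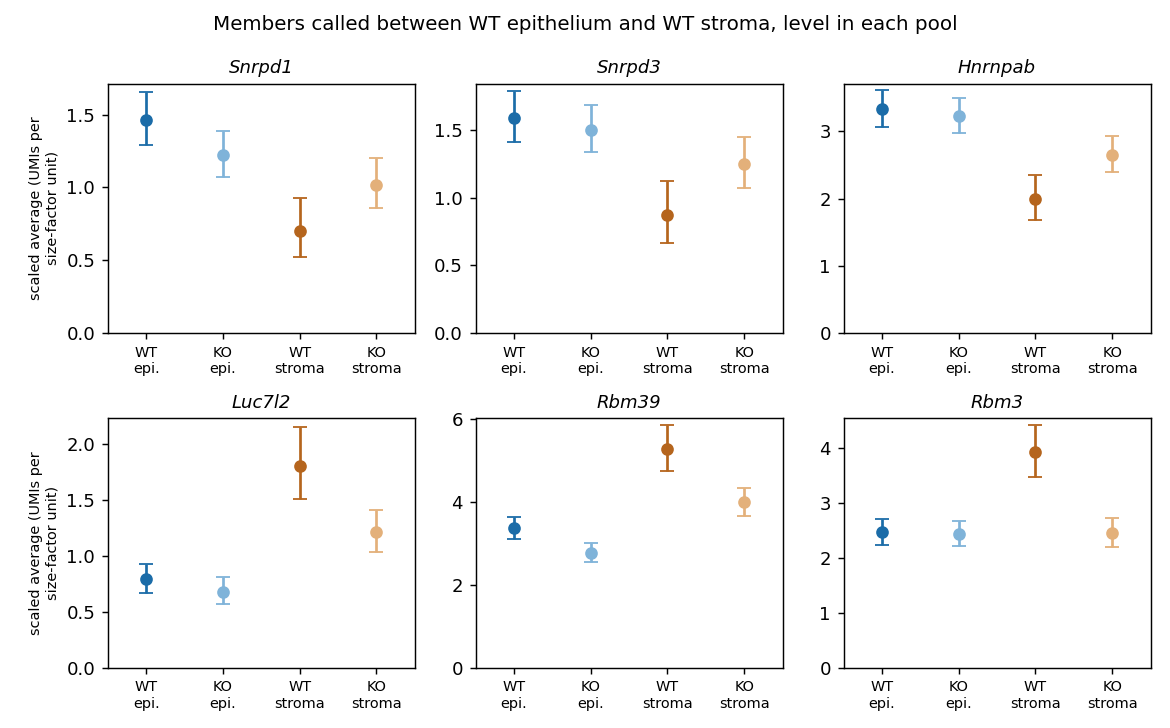
Scaled average (UMIs per size-factor unit, linear axis from 0) of the 6 members called between WT epithelium and WT stroma, in each of the 4 pools; points are pooled values and bars are 95% exact Poisson intervals, which cover counting error only. Snrpd1, Snrpd3 and Hnrnpab are lowest in WT stroma, while Luc7l2, Rbm39 and Rbm3 are highest there; the KO stroma value lies between WT stroma and WT epithelium for Snrpd1, Snrpd3, Hnrnpab, Luc7l2 and Rbm39, and just below WT epithelium for Rbm3.

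The listing itself bears on these calls, since a table lists a gene only if 1 or both of its pools average above 1 on the scale of that table. The scale used for levels here is that of the WT compartment table, so the floor of the other tables lies elsewhere on it. Of the 50 members, 40 were above 1 in both WT pools, 6 in epithelium alone and 4 in stroma alone. Snrpd1 and Snrpd3 entered through epithelium alone and Luc7l2 through stroma alone, and a gene that enters in this way has to differ. Among the 40 members above 1 in both pools, the calls were Hnrnpab, Rbm39 and Rbm3, or 7.5%, where 15% of all such genes were called. The epithelial markers summed to 8.02-fold more in WT epithelium than in WT stroma (12 listed, all called) and their part in the members' differences was not tested.

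Promoter sequence is shown for Hnrnpab, called higher in epithelium, for Rbm39, called higher in stroma, and for Srsf5, the most deeply counted of the SR proteins that stood lower in epithelium. Each run is the 150 bases upstream of a RefSeq start site on GRCm38.p6, read 5′ to 3′ on the gene's strand, and capitals mark matches to the motifs searched on both strands. The ETS motif was searched as CCGGAAG and the SP/KLF motif as GGGCGG. The CCAAT box and the TATA box, as TATAAA, were searched too. Further motifs were the E-box, as CACGTG, the CRE, as TGACGTCA, NRF1, YY1 and a CG-rich palindrome, none of which had a match in the runs shown.
Hnrnpab, chr11:51606882-51607031, minus strand: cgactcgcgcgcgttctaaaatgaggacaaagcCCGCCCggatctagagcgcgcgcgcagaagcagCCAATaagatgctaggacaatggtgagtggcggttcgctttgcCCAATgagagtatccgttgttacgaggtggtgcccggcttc
Rbm39, chr2:156180239-156180388, minus strand: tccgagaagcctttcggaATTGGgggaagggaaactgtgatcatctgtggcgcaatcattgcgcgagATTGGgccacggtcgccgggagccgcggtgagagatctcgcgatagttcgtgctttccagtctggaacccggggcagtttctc
Srsf5, chr12:80945349-80945498, plus strand: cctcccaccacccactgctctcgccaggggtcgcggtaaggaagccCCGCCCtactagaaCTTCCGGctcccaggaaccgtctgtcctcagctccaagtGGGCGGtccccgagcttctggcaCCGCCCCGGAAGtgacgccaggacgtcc

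Over windows of 300 bases (250 before to 50 after a start), 71 of the 83 members had 92 windows in the RefSeq table. The Hnrnpab window held matches to the SP/KLF, CCAAT and TATA letters, the upstream Rbm39 window to CCAAT and to the palindrome, and the Srsf5 window to ETS and SP/KLF. In Srsf5 an SP/KLF and an ETS match share 1 base. The palindrome was in 2 member windows (Rbm39 and Srsf10), or 2.17%, against 1.14% of 6078 windows of all listed genes and 0.466% of 32851 windows in the table. CCAAT was in 48.9% of member windows, 36.8% of those of all listed genes and 37.4% of all. Matches are descriptions of sequence and show no binding.

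The Sm proteins and the SR proteins took opposite sides. All 7 snRNP genes listed in WT were Sm core proteins, and all 7 were higher in epithelium, where 50.8% of all genes were. Of them 2 were called (28.6%, against 28.8% of all genes). Their median log2 ratio was 0.42 (0.02 to 1.06 over the genes), and their summed level was 1.31-fold that in stroma (1.21 to 1.42). Both called genes, Snrpd1 and Snrpd3, were listed through epithelium alone. Over the 5 Sm genes above 1 in both pools the median was 0.33 and the summed ratio 1.22 (1.12 to 1.32). Of these 0 were called, against 15% of all such genes. Snrpe and Snrpd2, for Sm proteins E and D2, had ratios of 1.016 (0.833 to 1.245) and 1.028 (0.852 to 1.247), whose intervals included 1. Snrpg, which encodes Sm protein G, had a scaled average of 4.34 in WT epithelium, 3.11 in WT stroma, 4.01 in KO epithelium and 3.44 in KO stroma, a WT ratio of 1.39 (1.20 to 1.63; FDR 0.257 in the authors' deposited table). Snrpf, for Sm protein F, had 1.924, 1.434, 1.843 and 1.497 in the same order of pools. In contrast, all 7 listed SR genes were lower in WT epithelium than in stroma, where 49.2% of all genes were lower. None of the 7 was called, against 28.8% of all genes. Their median was -0.22 (-0.45 to -0.04) and their summed ratio 0.857 (0.803 to 0.915). The intervals of Srsf1, Srsf2, Srsf6 and Srsf7 included 1. Srsf5, the SR gene with the most UMIs, had 3.44 in WT epithelium, 4.403 in WT stroma, 2.36 in KO epithelium and 3.06 in KO stroma, with stroma above epithelium in each genotype. Its WT ratio of epithelium over stroma was 0.780 (0.679 to 0.898; FDR 0.448 in the authors' deposited table).

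In WT, the 2 listed LUC7-like genes and the 2 helicases were also all lower in epithelium, and they were lower in KO too. The remaining classes were divided or had 1 listed gene. Among 17 hnRNPs, 8 were higher in epithelium and 9 in stroma (median -0.06). Over the 15 above 1 in both pools, the counts were 7 and 8. Hnrnpc, whose product binds uridine tracts in nascent RNA, had a scaled average of 2.21 in WT epithelium and 1.36 in WT stroma (1.62-fold, 1.29 to 2.05), and Hnrnpul2 had 1.24 and 0.703 (1.76-fold, 1.29 to 2.45). Neither was called (FDR 0.0886 and 0.101 in the authors' deposited table), and Hnrnpul2 was listed through epithelium alone. On the other side Hnrnph1, a regulator that binds guanine runs, had 3.27 in epithelium and 4.82 in stroma (ratio 0.679, 0.593 to 0.779; FDR 0.102 in the authors' deposited table). Further to that side lay Hnrnpr (0.648, 0.512 to 0.823) and Hnrnph2 (0.553, 0.414 to 0.740). Neither Hnrnpr nor Hnrnph2 was called, and Hnrnph2 was listed through stroma alone. The abundant Hnrnpa2b1 had 7.28 and 7.21 (ratio 1.01, 0.910 to 1.12), Hnrnpk 4.84 and 4.25 (1.14, 0.998 to 1.31), Hnrnpu 3.80 and 4.16 (0.913, 0.794 to 1.05) and Hnrnpa3 3.83 and 4.65 (0.824, 0.721 to 0.944). Of these 4 genes, the interval excluded 1 for Hnrnpa3 alone.

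Of 5 listed SF3 subunits, 4 were higher in epithelium (median 0.07). Over the 4 above 1 in both pools, 3 were higher in epithelium (median 0.05). Sf3b1, the subunit that contacts the branch point, had a scaled average of 2.18 in WT epithelium and 2.21 in WT stroma (ratio 0.986, 0.816 to 1.196). U2af1, which reads the end of the intron, had 1.63 and 1.42 (1.15, 0.911 to 1.46), and Prpf8 1.63 and 1.51 (1.08, 0.860 to 1.36). Prpf4b, a kinase of the tri-snRNP, had 1.02 and 1.65 (0.619, 0.487 to 0.789; FDR 0.147 in the authors' deposited table). Of the 5 RBM genes listed, 4 were higher in stroma, among them Rbm25, a U1-associated factor, with 0.688 and 1.10 (0.623, 0.465 to 0.840), and Rbm42 was the exception. Rbm25 was listed through stroma alone and Rbm42 through epithelium alone. The 3 RBM genes above 1 in both pools were all higher in stroma. Luc7l3, a relative of Luc7l2, had 1.29 and 1.74 (0.745, 0.595 to 0.936). The RNA helicases Ddx5 and Ddx17, which are also coactivators of the estrogen receptor, had ratios of 0.800 (0.731 to 0.876) and 0.907 (0.782 to 1.06), with Ddx5 at 8.20 in WT epithelium and 10.3 in WT stroma.

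The KO uterus gave the same comparison in other animals. Of 65 members listed, 0 were called, against 9.88% of 2744 genes, and the smallest adjusted p among members in the authors' deposited table was 0.107, for Luc7l2. Past 1.5-fold lay 0 members higher in epithelium (9.69% of all genes) and 2 higher in stroma (11.2% of all genes), Luc7l2 and Rbm25. Luc7l2 had a ratio of epithelium over stroma of 0.563 (0.445 to 0.711), Rbm25 of 0.652 (0.512 to 0.829), Prpf4b of 0.670 (0.535 to 0.838) and Rbm39 of 0.695 (0.616 to 0.784). At the upper end, Srsf10 had 1.24 (0.951 to 1.62), Snrpf 1.23 (1.04 to 1.47) and Hnrnpul2 1.23 (0.981 to 1.54). The 7 Sm genes were again all higher in epithelium and the same 7 SR genes all lower, also after centring on the median gene of each table. Of all genes listed for both genotypes, 43.1% were higher in epithelium in both and 41.4% lower in both. The KO intervals included 1 for Snrpb, Snrpd1, Snrpd3 and Snrpe, and for Srsf6, Srsf7 and Srsf11. For the snRNP class the summed ratio was 1.14 (1.08 to 1.21; 9 genes, 8 of them higher in epithelium, the exception being Snrpa), and for the SR class 0.843 (0.798 to 0.891; 8 genes, 7 lower, the exception being Srsf10).

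Across the 50 members listed for both genotypes, 44 had the same sign of contrast in WT and KO, or 88%, where 84.5% of 1737 genes did. Pearson's r of the log2 ratios was 0.77 and Spearman's rho 0.81 over these 50 genes, and 0.91 and 0.87 over all 1737, as descriptions across genes that share their libraries and are not independent. The WT and KO contrasts share no pool, but compartments were named in both. The contrast was larger in WT for 34 of the 50 members (68%) and for 78% of all genes. Of these 50 members, 6 were above 1 in WT epithelium alone and 4 in WT stroma alone, and genes listed in this way have to differ in WT. WT stroma also had the lowest depth of the pools. The part of listing and depth in the larger WT contrasts was not tested. The median size of the members' log2 ratios was 0.31 in WT and 0.19 in KO, and over all genes 0.45 and 0.27. Beside this, the summed epithelial markers were 8.02-fold higher in epithelium in WT and 3.14-fold higher in KO (15 listed), and whether that difference bears on the members was not tested.

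**Figure D2:**
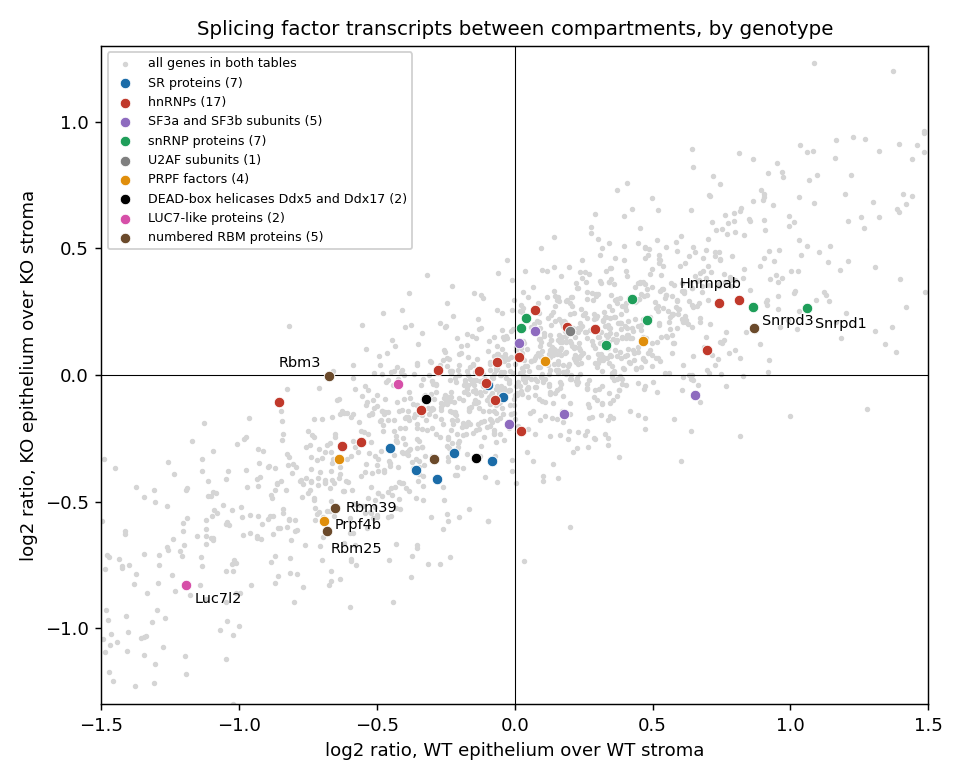
Each point is a gene; the horizontal axis is the log2 ratio of WT epithelium over WT stroma and the vertical axis that of KO epithelium over KO stroma, with members coloured by class (number of genes in brackets) and all genes of both tables in grey, some of which fall beyond the axes. The 7 snRNP genes lie at the upper right and the 7 SR genes in the lower left, and Luc7l2 is the most extreme member on the lower left.

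Between genotypes no splicing factor was called in epithelium. Of 83 members 0 were called, against 0.12% of 5811 genes (7 genes), and the authors' deposited table gave each member an FDR of 1. The members had a median log2 ratio (KO over WT) of -0.11, and all genes one of -0.10, and 62 members (74.7%) were lower in KO, as were 64.8% of all genes (35.2% were higher). Against the median gene, 41 members were higher and 42 lower. The summed level of the members was 0.904 times that in WT (0.888 to 0.921). None of the members was past 1.5-fold higher in KO (3.44% of all genes), and 4 were past it in the other direction (5.4% of all genes), namely Rbm24, Sf3a2, Rbm18 and Prpf39.

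Rbm24, best known as a regulator of muscle splicing, had 69 UMIs in KO epithelium and 109 in WT, a ratio of 0.584 (0.426 to 0.797). Smooth muscle markers were lower in the same pool, with 9 of 10 listed lower in KO, a summed ratio of 0.649 and no call, and the part of muscle RNA in the Rbm24 value was not tested. Sf3a2, a subunit of SF3a named here because it passed the fold, had 54 and 82 UMIs and was above the listing floor in WT alone. Rbm18 had 62 and 88 UMIs (0.650, 0.462 to 0.910), and Prpf39, a U1-associated factor, 79 and 111 (0.657, 0.486 to 0.884). On the upper side Rbm15b, named after its value was seen, had the highest ratio, 1.248 (0.857 to 1.83; 69 against 51 UMIs), and was above the listing floor in KO alone. Among members above it in both pools the highest were Snrpa, a U1 snRNP protein, at 1.19 (0.919 to 1.55), Snrpc, also of U1, at 1.15 (0.932 to 1.41) and U2af2 at 1.14 (0.914 to 1.43). The intervals of Rbm15b, Snrpa, Snrpc and U2af2 all included 1.

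By class, the medians in epithelium were -0.11 for SR proteins (3 of 10 higher in KO), -0.14 for hnRNPs (2 of 20), -0.18 for SF3 subunits (2 of 9), -0.09 for snRNP proteins (3 of 11), -0.20 for PRPF factors (3 of 10) and -0.05 for RBM proteins (6 of 16). The median of all genes was -0.10. The 8 members with the highest mean average divided. Ddx5 had a ratio of 0.788 (0.730 to 0.851; 1241 against 1453 UMIs), Rbm39 of 0.825 (0.733 to 0.929) and Hnrnpa2b1 of 0.899 (0.831 to 0.973; 1258 against 1291). The other five were nearer to equality, with Snrpg at 0.924 (0.835 to 1.022), Hnrnpu at 0.931 (0.836 to 1.04), Hnrnpa3 at 0.977 (0.879 to 1.09), Ddx17 at 0.984 (0.878 to 1.10) and Hnrnpk at 1.018 (0.928 to 1.12). Srsf5, the SR gene with the most UMIs, had 0.686 (0.606 to 0.776; 453 against 609 UMIs). The intervals of Ddx5, Rbm39, Hnrnpa2b1 and Srsf5 excluded 1 and those of the other 5 included it. Centred on the median gene, the log2 ratios of Ddx5, Rbm39, Hnrnpa2b1 and Srsf5 were -0.24, -0.17, -0.05 and -0.44. Those of Snrpg, Hnrnpu, Hnrnpa3, Ddx17 and Hnrnpk were -0.01, 0.00, 0.07, 0.08 and 0.13. No member was called in the authors' deposited table, and spread between animals could not be measured.

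In stroma the genotype comparison listed 40 members, and again 0 were called, against 1.51% of 1191 genes. The smallest adjusted p among members in the authors' deposited table was 0.481. The median log2 ratio stood at -0.17 among members and -0.05 among all genes, with 29 members (72.5%) lower in KO where 54.3% of all genes were (45.7% were higher). Against the median gene, 26 members were lower and 14 higher. Their summed level was 0.870 times that in WT (0.846 to 0.895), and the median was the same over the 35 members above 1 in both pools. One member, Rbm3, was past 1.5-fold lower in KO (8.65% of all genes) and 0 were past it higher (6.38% of all genes).

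Rbm3 had a scaled average of 2.45 in KO stroma and 3.93 in WT stroma, a ratio of 0.622 (0.529 to 0.732), while in epithelium its ratio was 0.988 (0.866 to 1.13). Whether the genotype ratio differed between compartments was not tested. Hnrnph1 had 3.22 and 4.82 in stroma (0.667, 0.578 to 0.771; FDR 0.701 in the authors' deposited table), and Ddx5 6.89 and 10.3 (0.672, 0.610 to 0.742; FDR 0.666 in the authors' deposited table). Luc7l2 had 1.21 and 1.81 (0.671, 0.530 to 0.851) and Srsf5 3.058 and 4.403 (0.695, 0.599 to 0.807). On the upper side were Hnrnpc with 2.02 in KO and 1.36 in WT (1.48, 1.17 to 1.89), Hnrnpab with 2.65 and 1.99 (1.33, 1.09 to 1.63) and Hnrnpm with 2.19 and 1.95 (1.12, 0.914 to 1.38). Snrpd3 had 1.43 (1.06 to 1.94), entering the table through KO stroma alone. Luc7l2 entered it through WT stroma alone.

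The members that stood higher in KO stroma included ones that were higher in WT epithelium (Hnrnpc, Hnrnpab and Snrpd3), and those lower in KO stroma included ones that were higher in WT stroma (Rbm3, Luc7l2, Hnrnph1). Both contrasts use the WT stroma pool, so they are not independent. In both, Snrpd3 was below the listing floor in WT stroma, and Luc7l2 was listed through WT stroma alone. Beside them, 6 of 20 epithelial markers were listed and all higher in KO stroma, with a summed ratio of 2.29 (2.06 to 2.55). Of 12 smooth muscle markers, 8 were listed and all lower, with a summed ratio of 0.486 (0.454 to 0.520), 3 of them called. A marker listed through 1 stroma pool alone has to differ, and how many were so listed was not counted. Over the 12 epithelial markers with a value in all pools, the summed scaled average was 17.2 in KO stroma and 7.84 in WT stroma. The part of epithelial or muscle RNA in the members' values was not tested. Of the 40 members listed in both genotype tables, which come from the same animals, 26 (65%) were lower in KO in both compartments, as were 37.9% of 1185 genes.

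**Figure D3:**
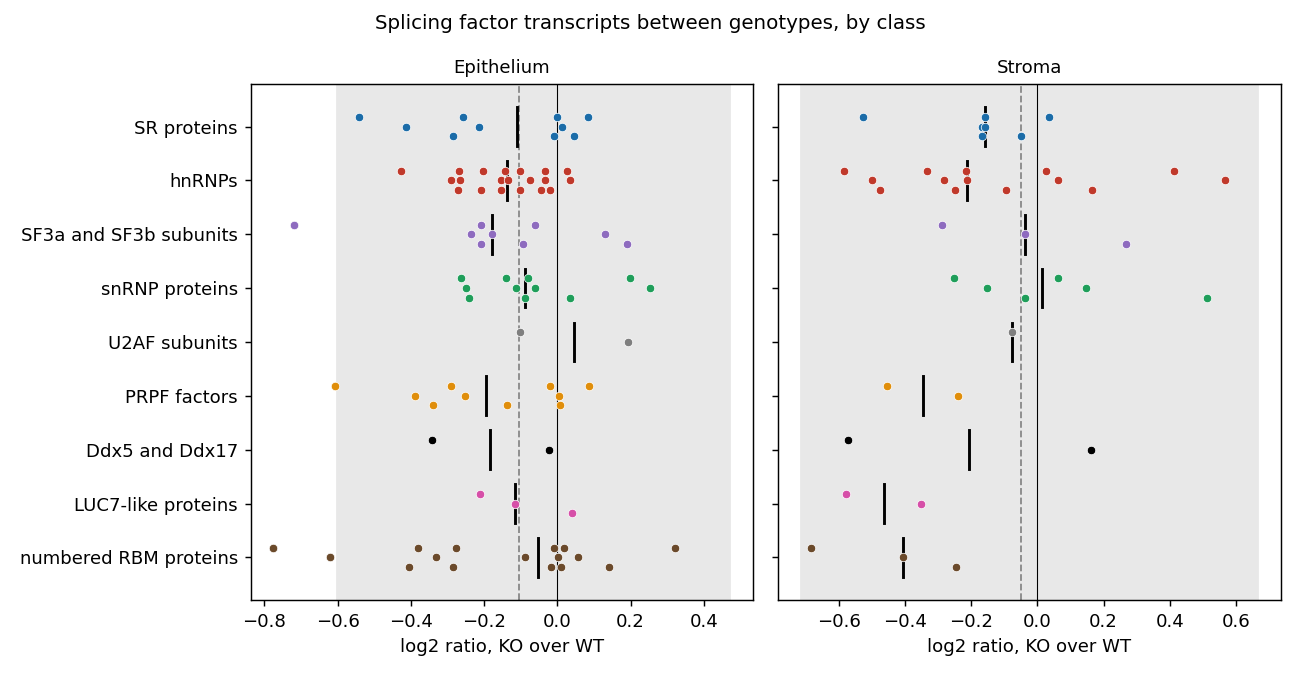
Log2 ratio of KO over WT for each member, by class, in epithelium (83 members) and stroma (40 members); each point is a gene, the short black bar is the class median, the dashed line the median of all listed genes (-0.10 and -0.05) and the grey band leaves out the lowest 5% and the highest 5% of all listed genes. Most members lie inside the band, with Rbm24, Sf3a2, Rbm18 and Prpf39 at or beyond its lower edge in epithelium and none outside it in stroma.

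Other genes of the splicing pathway were followed in 5 lists outside the naming rule, holding 160 genes. Not all of them were listed between genotypes. In epithelium 15 early spliceosome, 32 tri-snRNP, 18 exon junction, 20 SR-related and 38 other genes were listed. In stroma the counts were 5, 2, 0, 10 and 19 in the same order. Of those listed 0 were called, against 0.12% of all genes in epithelium and 1.51% in stroma. In WT, among 12 listed SR-related proteins and SR-protein kinases, 4 were called (33.3%, against 28.8% of all genes), all higher in stroma, with a median log2 ratio of epithelium over stroma of -0.46 over the list. Son, a scaffold of nuclear speckles, was 2.17-fold higher in stroma (1.83 to 2.58; FDR 0.000103 in the authors' deposited table), Zranb2 1.89-fold (1.44 to 2.47), Scaf11 1.84-fold (1.41 to 2.39), and Clk1, a kinase that phosphorylates SR proteins, 1.59-fold (1.37 to 1.85). Zranb2 and Scaf11 were listed through stroma alone. Over the 8 genes of the list above 1 in both pools, 2 were called (25%, against 15% of all such genes) and the median was -0.42. The list's median in KO was -0.33 with 0 of 14 called.

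Among 25 other RNA-binding regulators of splicing, 5 were called in WT (20%, against 28.8% of all genes). Mbnl1 was 2.53-fold higher in stroma (2.06 to 3.10), Celf2 2.69-fold (2.08 to 3.48) and Qk 2.39-fold (1.87 to 3.07), while Raly was 1.90-fold higher in epithelium (1.48 to 2.46) and Ybx1 1.64-fold (1.42 to 1.90). Celf2 and Qk were listed through stroma alone, and over the 18 genes above 1 in both pools 3 were called (16.7%) and the median was 0.00. Mbnl1, Celf2 and Qk encode regulators with known roles in muscle splicing, and 8 of 9 listed smooth muscle markers were called higher in WT stroma; the part of muscle RNA in these values was not tested. Mbnl1 was called in KO as well, 2.04-fold higher in stroma (1.70 to 2.45; FDR 0.00902 in the authors' deposited table), the one call among 30 listed (3.33%, against 9.88% of all genes). The core lists held no call in WT or KO, whether early spliceosome factors (8 and 10 listed, medians -0.28 and -0.02), tri-snRNP, Lsm and catalytic factors (6 and 12 listed, 0.00 and 0.13) or exon junction, cap-binding and export factors (6 and 11 listed, 0.06 and -0.03). Over the early spliceosome factors above 1 in both pools (6 in each genotype), the medians were -0.04 in WT and -0.12 in KO.

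**Figure D4:**
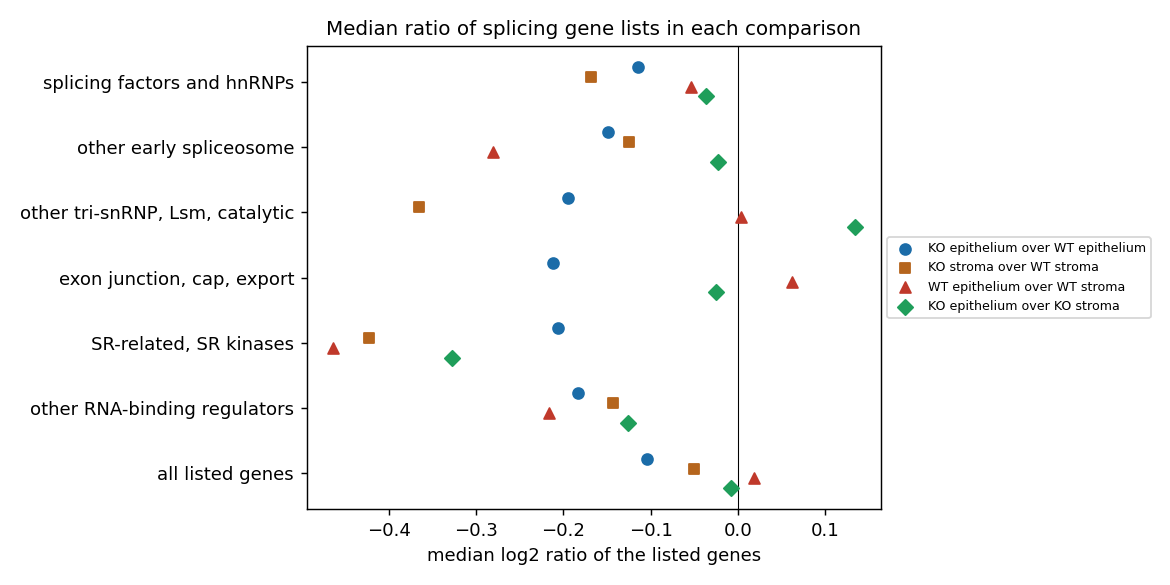
Median log2 ratio of the members, of the 5 lists of other splicing genes and of all listed genes (rows) in each of the 4 comparisons (markers); a median over few listed genes rests on those alone, and a comparison with 0 listed genes has no marker. The SR-related list is on the stroma side of both compartment comparisons (-0.46 and -0.33), while the members lie near 0 in both.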

How the data were processed

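Sections of 10 µm from 4 WT and 4 KO uteri were placed on Visium slides, stained and sequenced, per the labels' protocols. GRCm38 is the build that the submitters' processing notes name. How reads were aligned, spots named and genes tested is not given in the sources used here. Each of 4 deposited tables gives the authors' average of both pools (a score scaled by size factor), a log2 fold change and an adjusted p-value (FDR). Pooled UMI sums were recovered by least squares from the deposited averages and log2 fold changes; 100% of averages gave whole sums within 0.01 in each table, and 0 genes differed between tables. Size factor sums put all pools on 1 scale. Ratios carry no pseudocount. No p-value was computed. The recovery was tested on simulated data.

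The members, lists, the naming rule (called members, the highest and lowest 3 ratios above 1 in both pools per table, the 8 with the highest mean average and the highest of each class; called pathway genes, up to 4 per direction and list) and the tests were chosen with earlier results of these data known. The 1.5-fold count, Hnrnph2, Hnrnpr, Sf3a2, Rbm15b, Rbm42, Snrpb, Snrpd2, Snrpe, Srsf1, Srsf2, Srsf6, Srsf7, Srsf11, the class and list values above 1 in both pools and the promoters shown were added after the values were seen. Prpf4b was kept out of the SR-related list as a member. Of 83 member IDs, 83 were found in GENCODE M21. Hnrnpa1, Rbm3 and Rbm6 have named pseudogenes and 17 members overlap a gene on their own strand, so their counts are less certain. On the opposite strand 35 members overlap a gene, and whether counting used strand is not given. Alternatives were a threshold of 0.01, a minimum log2 fold of 1, leaving out the lowest 25% of genes, averages above 1 in both pools, no RBM proteins, and centring. Python 3.11.15 was used with NumPy, SciPy, pandas and matplotlib.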

Additional observations from a re-analysis of the deposited data

How the results depend on the processing

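In WT epithelium against stroma, the 6 called members became 2 at an adjusted p of 0.01 and 2 with a minimum log2 fold of 1 (Luc7l2 and Snrpd1 under both), and numbered 6 without the lowest 25% of genes; the other comparisons had 0 called members under each. Without RBM proteins the summed ratio of members in WT was 0.970. Centring on the median gene moved the members' median in KO against WT epithelium from -0.11 to -0.01, that of hnRNPs there to -0.03, that of RBM proteins there to 0.05 and that of U2AF subunits in stroma to -0.03; of members past 1.5-fold it left 2 of 4 lower in KO epithelium and made 1 higher in KO stroma. Leaving out genes listed through 1 pool alone turned the median of the other RNA-binding regulators in WT from -0.22 to 0.00. It turned that of the early spliceosome factors in WT from -0.28 to -0.04. Centring kept the sign of all 6 called ratios. No paired analysis was possible because the deposited values are 1 per genotype and compartment; replicates could not be left out either. Depth limits the shallow WT stroma pool most, where members had 39 to 715 UMIs (median 135).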

Other observations

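Promoters of the SF3 genes often held the ETS letters. Of 7 SF3 genes with a RefSeq window, all but Sf3b1 held CCGGAAG, in 7 of 8 windows (87.5%; the windows of Sf3b2 overlap), against 29.3% of all member windows and 18.7% of the windows of all listed genes. The share was 46.2% for SR proteins, 40% for snRNP proteins, 40% for Ddx5 and Ddx17, 27.3% for PRPF factors, 14.8% for hnRNPs, 7.14% for RBM proteins and 0% for U2AF and LUC7-like genes, whose windows were 2 each. The letters were searched on both strands and the SF3 pattern was noticed after the search, so it is a description.

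Transcript length went with the compartment contrast. In WT, Spearman's rho between the longest coding transcript of a member and its log2 ratio of epithelium over stroma was -0.40 over 50 members, -0.27 over the 43 that are not snRNP proteins and -0.29 over 1738 listed genes with a length. In KO, where more genes were listed, it was -0.31 over 65 members, -0.15 over the 56 that are not snRNP proteins and -0.29 over 2706 genes. The Sm transcripts had a median length of 1055 bases, SR proteins 2510 and LUC7-like proteins 4934. These are descriptions across genes of the same libraries, and genes are not independent replicates.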
